A study of Caenorhabditis elegans with 6 samples.

Results

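The comparison described here set total small RNA of the susi-2(ust49) mutant directly against total small RNA of the susi-3(ust51) mutant of Caenorhabditis elegans. Both libraries were chosen by their titles, and they are 2 of the 6 small RNA libraries of the study. The other libraries were a total small RNA library of the control strain, which is given beside the mutants as background only, and the small RNAs recovered with tagged NRDE-3 (the NRDE-3 IP) from each of the 3 genotypes. The study asks about siRNAs antisense to ribosomal RNA.

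The susi-2 library came from worms with the allele susi-2(ust49) and the susi-3 library from worms with the allele susi-3(ust51). Worms of every group, the control included, carried the mutation eri-1(mg366) and tagged GFP::NRDE-3, so that no library came from a wild-type strain. Each susi gene is represented by 1 allele. All worms were labelled as L3 larvae fed E. coli OP50 at 15 °C, and the growth protocol says that worms had earlier been kept at 20 °C. RNA came from whole larvae, so that levels are averages over all tissues. With 1 library per genotype no difference has a replicate check, no test across samples was possible, and a difference between the libraries can come from the genotype, the culture or the library preparation. The 95% intervals below are exact and cover counting error only. Because the reads carry no molecular identifiers, they cannot be taken as independent molecules.

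As background, susi-2 is rrp-8, which encodes an rRNA methyltransferase that modifies the 26S rRNA of the large ribosomal subunit, and susi-3 is riok-1, which encodes a kinase that acts in the maturation of the small subunit and its 18S rRNA. When rRNA is faultily processed or modified, RNA-dependent RNA polymerases of the worm can copy it into antisense siRNAs, the risiRNAs. The Argonaute NRDE-3 carries such siRNAs from the cytoplasm into the nucleus. In eri-1 mutants NRDE-3 lacks the endogenous siRNAs that it normally carries.

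The susi-2 library held 10471072 counts, the susi-3 library 9842186 and the control library 10512324, so that 1 count in a mutant library was 0.0955 or 0.102 counts per 1000000 counts (CPM). Counts antisense to their feature made up 17.6% of the susi-2 library, 20.0% of the susi-3 library and 25.97% of the control library. Sense counts on rrp-8 were 10 in susi-2, 36 in susi-3 and 30 in the control, a share 3.83-fold higher in susi-3 than in susi-2 (1.86 to 8.65). On riok-1 they were 138, 89 and 94 in the same order, 1.46-fold higher in susi-2 (1.11 to 1.92). The lesions of the alleles are not given in the labels, so that these fragments check the genotypes only weakly. Sense counts on the shared mutated gene eri-1 were 22, 7 and 8.

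Antisense counts on rRNA differed between the mutants in opposite directions for the large and the small subunit. The 26S gene (rrn-3.1), the large subunit rRNA, had 1214 antisense counts in susi-2 (116 CPM), 413 in susi-3 (41.96 CPM) and 220 in the control (20.9 CPM). The share in susi-2 was 2.76-fold that in susi-3 (2.47 to 3.097). The 18S genes (rrn-1.1 and rrn-1.2), which encode the small subunit rRNA, had 253 antisense counts in susi-2 (24.2 CPM), 441 in susi-3 (44.8 CPM) and 97 in the control (9.23 CPM). Here susi-3 was the higher library, by 1.85-fold (1.59 to 2.17). Both 18S copies differed the same way, rrn-1.1 with 131 counts in susi-2 and 220 in susi-3, and rrn-1.2 with 122 and 221. These copies may share reads and are not independent.

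The 5.8S gene (rrn-2.1), whose product pairs with 26S in the large subunit, had 170 antisense counts in susi-2, 93 in susi-3 and 43 in the control, 1.72-fold higher in susi-2 (1.33 to 2.24). The 5S rRNA, also of the large subunit but transcribed from a separate gene cluster, had 614, 499 and 227 antisense counts over 13 copies, 1.16-fold higher in susi-2 (1.03 to 1.30). Of the 12 tested copies among these, 11 had a log2 ratio of susi-2 to susi-3 above 0, from −0.39 to 0.52 over all 12. A further 3 copies, rrn-4.4, rrn-4.2 and rrn-4.3, held their abundant fragments in the antisense column and were left out of this sum. Summed over the genes of the precursor transcript (18S, 5.8S and 26S), antisense counts were 1637 in susi-2 and 947 in susi-3, 1.62-fold higher in susi-2 (1.499 to 1.76). For all 4 rRNAs both mutant libraries lay above the control.

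**Figure D1:**
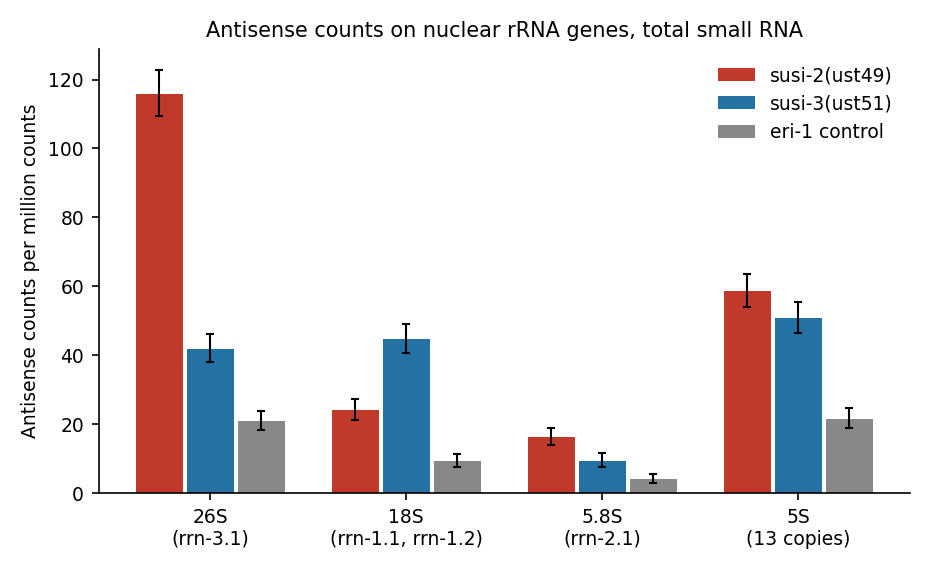
Antisense CPM on the nuclear rRNA genes in the total small RNA libraries of susi-2(ust49), susi-3(ust51) and the eri-1 control, 1 library each, with exact 95% counting intervals as error bars. The susi-2 bar is the tallest for 26S (116 CPM against 41.96 in susi-3), while for 18S the susi-3 bar is the tallest (44.8 against 24.2).

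The balance of both large rRNAs therefore differed. Of the antisense counts on 18S and 26S together, 17.2% lay on 18S in susi-2 (15.3 to 19.3), 51.6% in susi-3 (48.2 to 55.0) and 30.6% in the control. Put as a ratio of counts, there were 4.798 antisense counts on 26S for each on 18S in susi-2 and 0.937 in susi-3. The tables also hold 4 features of class rRNA that overlap the rRNA genes in the annotation and are counted in the reverse orientation, so that their sense counts are antisense to rRNA. On F31C3.14, which overlaps the 26S gene, these were 322 in susi-2 and 133 in susi-3, 2.28-fold higher in susi-2 (1.85 to 2.81), and on F31C3.16 they were 255 and 67, 3.58-fold higher (2.72 to 4.75). On F31C3.15 and F31C3.13, which overlap the 18S copies, they were 15 against 22 and 4 against 6, too few to part the libraries. With these features added, the 18S percent was 13.2 in susi-2 and 43.3 in susi-3.

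Fragments from the rRNA strand itself differed far less and did not show this crossing. The share of 26S sense counts was 1.14-fold and that of 18S sense counts 1.24-fold higher in susi-2, 5S was 1.097-fold higher and 5.8S was 1.01-fold higher in susi-3. As a percent of all counts on the gene, antisense counts on 26S were 0.0561% in susi-2 (0.0530 to 0.0594) and 0.0231% in susi-3 (0.0210 to 0.0255). For 18S the order was the reverse, with 0.0232% in susi-2 (0.0204 to 0.0262) and 0.0535% in susi-3 (0.0486 to 0.0587).

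In the NRDE-3 IP the crossing was not seen. Antisense counts in the IP of susi-2 and susi-3 were 717187 and 18018 on 26S, and 55364 and 5473 on 18S. As shares they were 41.5-fold higher in susi-2 for 26S and 10.5-fold higher for 18S. The IP share of 5.8S was 76.2-fold and that of 5S 54.4-fold higher in susi-2. The 18S percent of both IP libraries was nevertheless ordered as in total RNA, with 7.17% in susi-2 and 23.3% in susi-3.

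Beyond rRNA, antisense counts were compared gene by gene as the log2 of the ratio of CPM values after 1 CPM was added to each, over 4771 genes with at least 50 antisense counts in both libraries together. A gene is called higher or lower where the ratio is at least 2-fold, which describes these libraries and is not a test. Because of the added 1 CPM, this log2 ratio understates the difference of low genes. Of the tested genes 187 were called higher in susi-2 (3.92%) and 615 lower (12.9%), with a median log2 ratio of −0.05. More genes were called lower than higher under each scaling, but the size of this imbalance depended on the scaling. Calls higher in susi-2 were 23.3% of all calls with scaling to total counts, 30.3% with TMM factors and 46.5% with scaling to microRNA counts. TMM placed its zero at −0.10, and the microRNA class as a whole stood at −0.27. The genes just inside and just outside the threshold were T23F6.3 at 1.00 and K12H4.5 at 0.997.

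**Figure D2:**
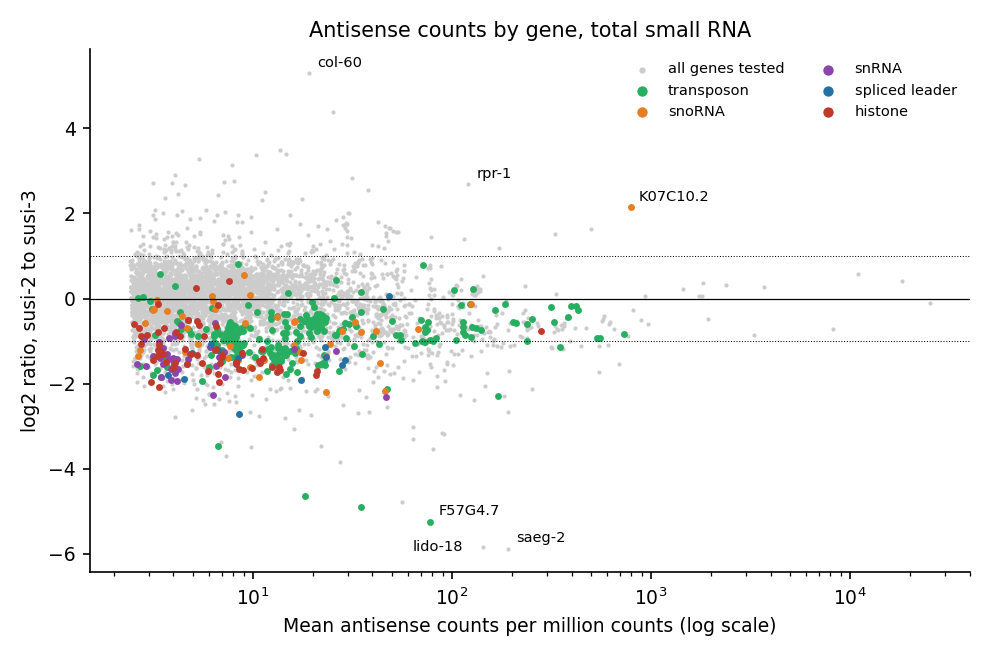
Log2 ratio of antisense counts, susi-2 to susi-3, for each of 4771 genes against the mean antisense CPM on a log axis, with dotted lines at 2-fold. The snRNA genes (purple) and most transposon, spliced leader, snoRNA and histone genes lie below 0, K07C10.2 and rpr-1 stand above, and saeg-2, lido-18 and F57G4.7 are near the bottom.

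Antisense counts on noncoding RNAs of the splicing machinery were lower in susi-2. Genes of snRNAs, the RNAs of the spliceosome and of the related SmY particles, had lower antisense counts in susi-2 for 36 of 42 tested genes, and all 42 lay below 0, with a median log2 ratio of −1.40 beside −0.05 over all genes. Summed over the class, antisense counts were 1446 in susi-2, 4602 in susi-3 and 519 in the control, 3.39-fold higher in susi-3 (3.19 to 3.59). The small nematode RNA smy-1, a SmY RNA that takes part in trans-splicing, had 158, 773 and 51 counts, 5.21-fold higher in susi-3 (4.38 to 6.22). All SmY genes together, including those that the files place among the snoRNAs or other ncRNAs, had 871, 2983 and 288. Near-identical copies may share reads, so that genes of these classes are not independent of each other.

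Spliced leader RNAs, which donate the leader exon that is trans-spliced onto mRNAs, differed likewise, with 13 of 14 tested genes lower in susi-2 and a median of −1.42. All 13 were SL2 genes, whose leader is used for downstream genes of operons. SL2 genes had 889 antisense counts in susi-2, 2596 in susi-3 and 581 in the control, 3.11-fold higher in susi-3 (2.88 to 3.36). The SL1 genes without sls-1.12 had only 21, 164 and 28, 8.31-fold higher in susi-3 (5.26 to 13.8). The gene sls-1.12, with 520, 466 and 757 antisense counts against 5 and 29 sense counts in the mutants, carried most of its fragments in the antisense column and was near equal. Of single genes sls-2.18 had 16 antisense counts in susi-2, 153 in susi-3 and 7 in the control, 10.17-fold higher in susi-3 (6.07 to 18.2).

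The snoRNAs, which guide the modification of rRNA, had 19 of 42 tested genes lower in susi-2 and 1 higher, with a median of −0.76. The exception was K07C10.2, with 13552 antisense counts in susi-2, 2883 in susi-3 and 8511 in the control, 4.42-fold higher in susi-2 (4.24 to 4.60). It overlaps ncRNA genes, K07C10.3 and K07C10.6, in the annotation, and reads of overlapping genes cannot be assigned from these tables. Without it the class had 5952 counts in susi-2, 10083 in susi-3 and 5182 in the control, 1.80-fold higher in susi-3. The lowest was smy-3, a SmY RNA filed in this class, with 80, 382 and 13 counts, 5.08-fold higher in susi-3 (3.98 to 6.55).

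Histone genes, many of whose mRNAs lack poly(A) tails, had 42 of 61 tested genes lower in susi-2 and none higher, with a median of −1.31. Their antisense counts summed to 4510 in susi-2, 9672 in susi-3 and 9255 in the control. Most counts of the control lay on the linker histone gene his-24. It had 2177, 3467 and 6418 antisense counts, 1.69-fold higher in susi-3 than in susi-2 (1.61 to 1.79), and both mutants were below the control. The core histone gene his-15 had 98, 324 and 100, 3.52-fold higher in susi-3 (2.80 to 4.46), and his-50 had 7, 60 and 8. On his-15 and his-50 susi-2 lay near the control and susi-3 above it, so the summed order does not hold for each gene. Scaling to microRNA counts gave medians of −1.203 for snRNAs, −1.17 for spliced leader RNAs, −0.50 for snoRNAs and −1.104 for histones, and TMM gave −1.33, −1.32, −0.66 and −1.23, so the directions held.

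On these genes the sense fragments differed the other way or not at all. Sense counts on histone genes were 6459 in susi-2, 2437 in susi-3 and 2925 in the control, 2.49-fold higher in susi-2, and on snRNA genes without M163.13 they were 14912, 9088 and 10636, 1.54-fold higher in susi-2. M163.13 alone held 26681, 5355 and 22764 sense counts. As a result the antisense percent of all counts on snRNA genes without M163.13 was 8.83% in susi-2, 33.6% in susi-3 and 4.65% in the control. For histones it was 41.1%, 79.9% and 76.0%, where his-24 held most antisense counts of the control. For snoRNAs without K07C10.2 it was 4.14%, 16.4% and 6.32%, and for spliced leader RNAs without sls-1.12 it was 16.9%, 40.6% and 8.75%.

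**Figure D3:**
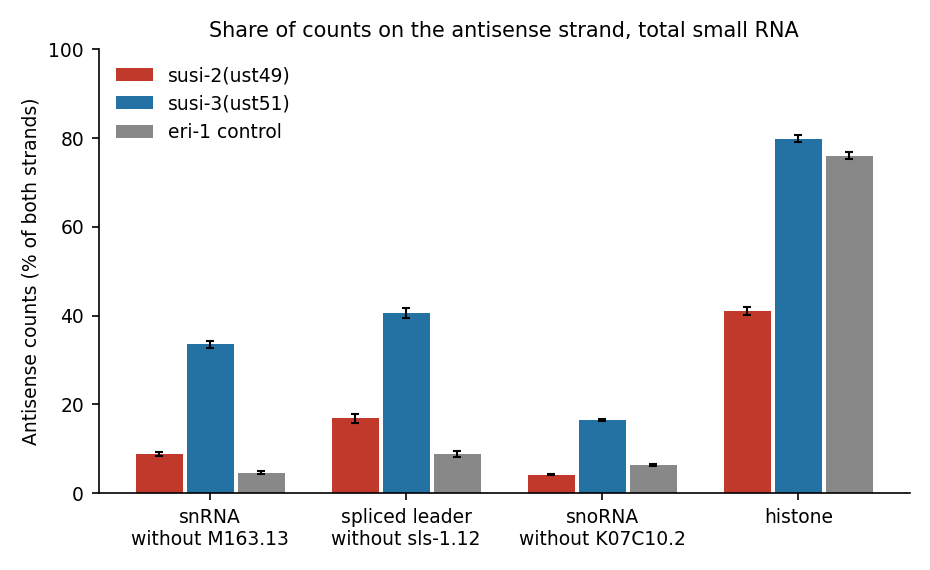
Antisense counts as a percent of the counts on both strands for 4 groups of genes in total small RNA of susi-2, susi-3 and the eri-1 control, with exact 95% counting intervals. The susi-3 bar is the tallest in each group, and for histones it is close to the control (79.9% against 76.0%) while susi-2 is at 41.1%. Most histone antisense counts of the control lay on his-24.

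In the NRDE-3 IP of the same genotypes these groups stood on the other side. Of the 4028 genes tested there, 2145 were higher in susi-2 (53.3%) and 8 were lower (0.199%), with a median of 1.06, so that a ratio above 0 is common in that comparison. The snRNA genes were higher in susi-2 in 16 of 16 tested, with a median of 2.39, the spliced leader RNAs in 7 of 8 (1.74), the snoRNAs in 49 of 53 (2.22) and the histones in 65 of 66 (1.49). The smy-1 gene had 90 antisense counts in the IP of susi-2 and 16 in that of susi-3, against 158 and 773 in total RNA. The his-15 gene had 525 and 143 in the IPs.

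Among transposon features, targets of small RNA silencing in the germline, 89 of 253 were lower in susi-2 and none was higher, with a median of −0.84 that became −0.75 with TMM and −0.60 with microRNA scaling. The number called lower was 55 with microRNA scaling. Many features are copies of 1 element and may share reads. T27C5.9 had 5534 antisense counts in susi-2, 9243 in susi-3 and 14206 in the control, 1.78-fold higher in susi-3. The features F57G4.7 (32 in susi-2, 1503 in susi-3 and 4510 in the control), F57G4.9 (14, 680 and 1666) and F57G4.6 (5, 354 and 1032) lie on 1 clone and were 49.97-fold, 51.7-fold and 75.3-fold higher in susi-3. The feature with the highest ratio among those with at least 200 counts, F21D9.7, had 952 counts in susi-2, 515 in susi-3 and 740 in the control. Long intergenic RNAs (lincRNAs) had a median of −0.42, and 3 of 25 genes lower in susi-2 is close to the 12.9% of all genes. Of these linc-29 had 3679, 10100 and 17496 antisense counts, 2.92-fold higher in susi-3.

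For protein-coding genes the difference followed abundance. Among the 255 genes with at least 1000 antisense counts, 70 were lower in susi-2 (27.5%) and 2 higher, with a median of −0.67. Among the 974 genes with 200 to 1000 counts, 131 were lower and 38 higher (median −0.01), and among the 2700 with fewer counts 229 were lower and 108 higher (median 0.05). The abundant group held bath-20 (8004 in susi-2, 11453 in susi-3 and 23524 in the control) and bath-45 (5636, 9831 and 15304). Both belong to the BATH and MATH domain family, of which 6 of 28 tested genes were lower in susi-2, 1 was higher and the median was −0.59. F-box genes, a large family of ubiquitin ligase adaptors, had 12 of 57 lower and 3 higher (median −0.24). Over all tested genes 12.9% were lower and 3.92% higher. With microRNA scaling 8 F-box genes were lower and 6 higher (median −0.008). In the BATH and MATH family 5 were then lower and 1 higher (median −0.34).

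The lowest log2 ratio of a protein-coding gene was that of saeg-2, with 57 antisense counts in susi-2, 3715 in susi-3 and 7073 in the control, 69.3-fold higher in susi-3 (53.4 to 91.7). Next to it lido-18 had 42, 2802 and 4393, 71.0-fold higher in susi-3 (52.4 to 98.7). For both, susi-2 was the low library, and susi-3 lay nearer to the control. In the IPs they were low in both mutants, with 85 counts in susi-2 and 65 in susi-3 for saeg-2 and 31 and 32 for lido-18. An ncRNA gene inside the saeg-2 locus, T23G5.9, had 2, 195 and 386 sense counts, which without knowledge of the read's origin may be the same molecules as the saeg-2 antisense counts.

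Other genes lay high only in susi-3 among the 3 libraries. The gene shc-2, named for an adaptor domain of signalling proteins, had 28 antisense counts in susi-2, 512 in susi-3 and 26 in the control, 19.5-fold higher in susi-3 than in susi-2 (13.3 to 29.6). R102.4 had 30, 408 and 39, 14.5-fold higher (9.98 to 21.7). By contrast Y20F4.4 (126, 1475 and 1646) and R06C1.4 (115, 1143 and 1803) were near the control in susi-3 and below it in susi-2. The ncRNA F49E12.14 (32, 1084 and 562) overlaps the microRNA gene mir-85 and is described with it.

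At the other end, col-60, a cuticle collagen gene, had 401 antisense counts in susi-2, 0 in susi-3 and 267 in the control. Taking the 0 as 3 counts, the share in susi-2 was 126-fold higher, a value that is not an interval limit. C18H2.4 had 515 counts in susi-2, 14 in susi-3 and 11 in the control, 34.6-fold higher in susi-2 (20.4 to 63.7), so that susi-2 alone was high. The gene cfap-36, a cilium-associated gene, followed the same pattern with 273, 14 and 19, 18.3-fold higher (10.7 to 34.0).

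RNase P RNA, the catalytic RNA that trims the 5′ ends of tRNAs, is encoded by rpr-1 and had 2202 antisense counts in susi-2, 314 in susi-3 and 356 in the control, 6.59-fold higher in susi-2 (5.85 to 7.44). It overlaps the protein-coding gene ints-8, so part of the counts may belong to that gene. Of the remaining named genes Y57G7A.6 (290, 17 and 77) and Y39B6A.41 (207, 10 and 43) were highest in susi-2. T28F4.6 had 586, 69 and 634 counts, with susi-3 as the low library. The genes pqn-32 (687, 103 and 196), Y57G7A.2 (213, 27 and 27) and clec-125, a C-type lectin gene (316, 51 and 47), were likewise highest in susi-2.

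The ncRNA class needs care, because 76 of its 438 tested genes overlap genes of small or structural RNAs and held 79.9% of the class's antisense counts in susi-2 and 83.3% in susi-3. Those that overlap microRNA genes alone held 74.8% and 81.1%, among them T09B4.14 over mir-1 and F16A11.6 over mir-71. Over all 438 genes 37 were higher in susi-2 (8.45%) and 23 lower (5.25%), with a median of 0.03. The shares over all genes tested for antisense counts were 3.92% higher and 12.9% lower. Without the 76 overlapping genes the calls over all classes were 177 higher and 613 lower.

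Antisense counts on the genes of the small RNA machinery itself were close in the mutants. Genes of siRNA amplification, the RNA-dependent RNA polymerases and their partners, had 0 of 18 called either way and a median of 0.13. The polymerase gene ego-1 had 436 antisense counts in susi-2, 325 in susi-3 and 587 in the control, and rrf-3, the polymerase that acts with ERI-1, had 84, 48 and 93. P granule genes had 0 of 14 called, with a median of 0.02 whose sign depends on the setting. Genes of nuclear RNAi had 1 of 13 lower in susi-2 (median 0.19), and Argonautes 1 of 12 (median −0.04, again with a sign that depends on the setting). These counts are no larger than the 12.9% of all genes called lower would give. The gene lower in susi-2 in both lists was nrde-3, and with microRNA scaling its log2 ratio was −0.85 and it was not called.

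That gene is the source of the tagged protein, and nrde-3 had 1114 antisense counts in susi-2, 2274 in susi-3 and 3292 in the control, 2.17-fold higher in susi-3 (2.02 to 2.34). Its sense counts were 1146, 571 and 442, 1.89-fold higher in susi-2 (1.70 to 2.09). The strands were thus ordered oppositely over the libraries. The endogenous gene and the transgene cannot be told apart in these counts. The gene unc-119, a common rescue marker in worm transgenes, had 645, 1514 and 1705 antisense counts, 2.50-fold higher in susi-3 (2.28 to 2.74), with 36, 65 and 61 sense counts. In the IPs both genes had more antisense counts in susi-2, with 6920 against 2539 for nrde-3 and 1917 against 683 for unc-119.

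Antisense counts on genes of ribosome production were few, with medians above that of all genes and calls no more frequent than among all genes (3.92% higher and 12.9% lower). Ribosomal protein genes had a median of 0.19 with 1 of 37 lower, rpl-11.2, and none higher. The ribosome biogenesis list, the factors that process and assemble pre-rRNA, had a median of 0.33 with 1 of 32 higher, nog-1, and none lower. The GTPase gene nog-1 overlaps rrp-8 itself, and had 222 antisense counts in susi-2, 91 in susi-3 and 167 in the control.

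Sense counts, which hold microRNAs and 21U-RNAs as well as fragments of longer RNAs, were compared over 8422 genes. Of these 642 were higher in susi-2 (7.62%) and 322 lower (3.82%), with a median of 0.17. Calls higher in susi-2 made up 66.6% of all sense calls, 48.2% with TMM, whose zero lay at 0.19, and 85.6% with microRNA scaling. Because the tables do not give read length, a sense count on an mRNA is called a fragment here.

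Fragments of the translation machinery were higher in susi-2. Of the ribosomal protein genes, 35 of 75 were called higher and none lower, all 75 lay above 0 and the median was 0.99. The number called was 13 with TMM and 59 with microRNA scaling. Their sense counts summed to 200562 in susi-2, 93550 in susi-3 and 75956 in the control, 2.02-fold higher in susi-2. The large subunit gene rpl-4 had 8623, 3548 and 2463 counts, 2.28-fold higher. The small subunit gene rps-16 had the largest ratio, with 4302, 1109 and 898 (3.65-fold, 3.41 to 3.90), and rpl-12 the smallest, with 1293, 1005 and 657 (1.21-fold).

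Sense fragments of snoRNAs were higher in susi-2 for 69 of 121 genes and lower for none, with a median of 1.16. ZK265.10 had 8978 counts in susi-2, 2736 in susi-3 and 4717 in the control, 3.08-fold higher (2.95 to 3.22). F25H5.9 had 4462, 356 and 1917, 11.8-fold higher (10.6 to 13.2), with susi-3 below the control. The ribosome biogenesis list had all 32 genes above 0 and a median of 0.52, while its 2 genes called higher are no larger a share than the 7.62% of all genes. With TMM nol-9, the lowest of them, stood at −0.07. Its most abundant members were nog-1 (1587, 445 and 502 counts, 3.35-fold higher in susi-2) and the nucleolin gene nucl-1 (794, 459 and 327).

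Histone sense fragments were higher in susi-2 for 31 of 55 genes, with none lower and a median of 1.08. Here his-15 had 359 counts in susi-2, 72 in susi-3 and 141 in the control, the reverse of its antisense order. Among nuclear RNAi genes 1 of 11 was higher for sense fragments, nrde-2, and their median was 0.58. This gene, whose product NRDE-2 is recruited by NRDE-3 to nascent transcripts, had 549, 183 and 322 counts, 2.82-fold higher in susi-2 (2.38 to 3.35). Argonaute genes had 1 of 15 higher, wago-4 (73, 25 and 19), and a median of 0.29. A single call in lists of this size is near the 7.62% of all genes. Transfer RNA genes had 52 of 448 higher and 16 lower in susi-2, with a median of 0.03 that turns below 0 with TMM.

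**Figure D4:**
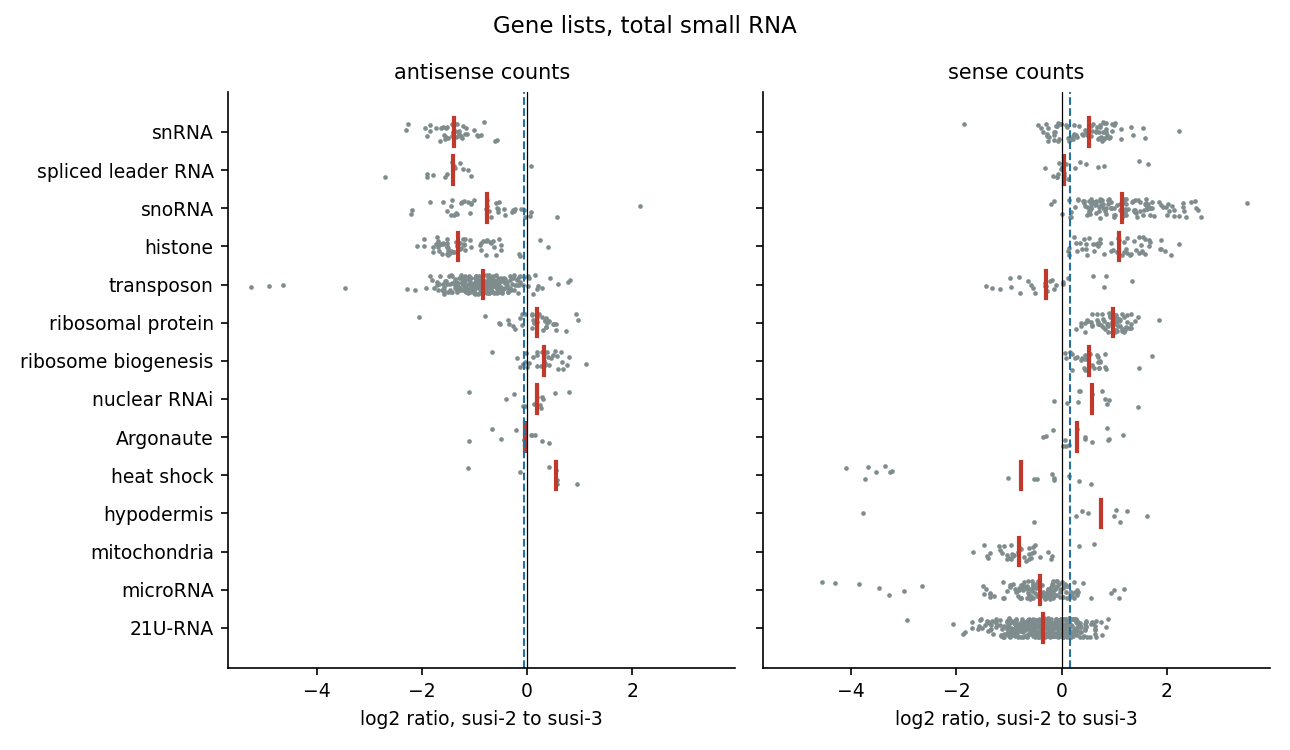
Log2 ratio of counts, susi-2 to susi-3, for each tested gene of 14 lists (grey points), with the median of each list (red bar) and of all genes tested (dashed blue line), antisense on the left and sense on the right. Histones, snRNAs and snoRNAs lie mostly left of 0 for antisense and mostly right of 0 for sense counts, and the low group of heat shock points is the hsp-16 genes with hsp-70.

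Heat shock genes had lower sense counts in susi-2 for 8 of 16 tested, beside 3.82% of all genes, with none higher and a median of −0.77. All 6 tested hsp-16 genes, small chaperones made on heat shock, were among them, with log2 ratios from −4.101 to −3.22. The hsp-16.1 gene T27E4.2 had 45 sense counts in susi-2, 885 in susi-3 and 37 in the control, 20.9-fold higher in susi-3 (15.5 to 28.9). The hsp-16 genes come in near-identical pairs that may share reads, such as the hsp-16.48 genes T27E4.3 (30, 476 and 31) and T27E4.9 (32, 454 and 36).

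The inducible chaperone gene hsp-70 had 13 counts in susi-2, 284 in susi-3 and 11 in the control, 23.2-fold higher in susi-3 (13.4 to 44.2), and the related F44E5.5 had 224, 2571 and 154, 12.2-fold higher (10.6 to 14.1). In all of these susi-3 alone was high, while susi-2 lay near the control. Constitutive chaperones were closer, with 3625, 3743 and 2260 counts for the cytosolic hsp-1 and 6498, 4837 and 4801 for hsp-3 of the endoplasmic reticulum. In the NRDE-3 IP 8 of 15 heat shock genes were lower in susi-2 as well (median −1.05), beside 4.19% of all genes, and T27E4.2 had 38 and 99 counts. The labels give the same temperatures for both strains, and the handling of each culture is not given.

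Markers of tissues differed less, apart from the hypodermal list. In whole larvae fewer cells of a type and less RNA per cell cannot be told apart. Sense fragments had medians of 0.29 for 9 intestinal genes, −0.27 for 12 body muscle genes, −0.39 for 4 pharyngeal genes, −0.38 for 11 neuronal genes and −0.08 for 5 germline genes (the sign of the last depends on the setting), and only 1 of these was called, the muscle troponin C gene pat-10 (961, 1913 and 651 counts). The calls depended on the scaling. With TMM 3 muscle genes and 1 pharyngeal gene were lower in susi-2, and with microRNA scaling no muscle gene was called, pat-10 stood at −0.81, and 2 intestinal genes were higher. Of 10 hypodermal genes 5 were higher in susi-2 and 1 lower, beside 7.62% and 3.82% of all genes, with a median of 0.75. TMM left 2 of the hypodermal genes higher.

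The hypodermal genes did not move as a unit. The molting gene mlt-10 had 287 sense counts in susi-2, 81 in susi-3 and 78 in the control, 3.33-fold higher in susi-2, and the collagen genes sqt-3 (1249, 540 and 334), rol-6 (289, 109 and 74), sqt-1 (634, 284 and 154) and dpy-13 (906, 419 and 203) were also higher there. The collagen gene bli-1, needed for the struts of the adult cuticle, had 4, 176 and 114 counts, 46.8-fold higher in susi-3 (17.96 to 174). In the IPs bli-1 had 12 counts in susi-2 and 732 in susi-3. Over all collagens 14 of 88 genes were higher and 6 lower, beside 7.62% and 3.82% of all genes tested for sense counts. With TMM 8 collagen genes were higher and 10 lower, and with microRNA scaling 23 and 6. The collagen median was 0.03, and its sign depends on the setting.

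The sperm list was taken by name and holds msp, nspc, spe and ssp genes. Of its 19 tested genes 6 were lower in susi-2, beside 3.82% of all genes, with a median of −0.72. All 6 were nspc genes of low counts such as nspc-4 (9, 95 and 45), and no msp, spe or ssp gene was called. The vitellogenin genes, which encode yolk proteins of the adult intestine, had too few counts to be tested gene by gene and summed to 7 sense counts in susi-2, 84 in susi-3 and 219 in the control. Their share was 12.8-fold higher in susi-3 (5.93 to 32.7). Several of these genes change with larval age, and the exact age within the L3 stage is not given for each library. The part of age in these and the other differences was not tested.

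Mitochondrial transcripts were lower in susi-2 for 11 of 36 genes and higher for none, with a median of −0.80, and the number called ranged from 5 with microRNA scaling to 18 with TMM. They summed to 425818 sense counts in susi-2, 608215 in susi-3 and 388991 in the control, 1.52-fold higher in susi-3. Detoxification genes had 8 of 91 higher and 10 lower, with a median of −0.04 whose sign depends on the setting. With microRNA scaling 16 of them were higher and 7 lower, and with TMM 7 were higher and 16 lower. Over all genes tested for sense counts 7.62% were higher in susi-2 and 3.82% lower.

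Of single protein-coding genes the transporter gene pgp-8 had the largest sense ratio, with 1120 counts in susi-2, 55 in susi-3 and 8 in the control, 19.1-fold higher in susi-2 (14.6 to 25.6), and 283 against 22 in the IPs. The C-type lectin gene clec-52 had 923, 123 and 82, and acs-7, an acyl-CoA synthetase gene, 320, 37 and 60. F17B5.1 (330, 18 and 36) and ZC395.5 (388, 24 and 179) were also highest in susi-2. The ncRNA C18C4.17 had 5096, 728 and 3340 sense counts, with susi-3 as the low library. At the other end the chemoreceptor gene srxa-8 had 20, 322 and 8, 17.1-fold higher in susi-3 (10.9 to 28.4).

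MicroRNAs as a class made up 2505935 sense counts in susi-2 and 2834073 in susi-3, 1.203-fold more as a share in susi-3. Of 133 tested microRNA genes 18 were lower in susi-2 and 2 higher, beside 3.82% and 7.62% of all genes tested for sense counts. Their median was −0.42, and −0.16 with microRNA scaling. The most abundant were close, with mir-1, a muscle microRNA, at 529311 counts in susi-2, 539120 in susi-3 and 696176 in the control. The lin-58 gene, which encodes miR-48, had 220392, 247617 and 177850, and mir-81 had 193106, 209952 and 149627. The exception among the 4 most abundant was mir-71, known for its role in lifespan, with 135111, 208507 and 131007 counts, 1.64-fold higher in susi-3.

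The differences of over 10-fold were in 3 microRNAs with at least 1000 counts. The largest was mir-85, with 89 counts in susi-2, 2184 in susi-3 and 1183 in the control, 26.1-fold higher in susi-3 (21.1 to 32.6). Then mir-246 had 126, 2523 and 3596 counts, 21.3-fold higher in susi-3 (17.8 to 25.7), and mir-59 had 1805, 18977 and 14187, 11.2-fold higher (10.7 to 11.7). For all 3 susi-2 was the library far below the other two. The IPs had the same order, with 6 counts in susi-2 and 116 in susi-3 for mir-85, 82 and 842 for mir-246 and 129 and 407 for mir-59. The ncRNA F49E12.14, which overlaps mir-85, had 36.04-fold more antisense counts in susi-3 (25.4 to 53.0), and these may be the same reads.

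Smaller differences in the same direction were those of mir-247 (299, 797 and 475 counts, 2.84-fold), mir-70 (83192, 168494 and 315304, 2.15-fold) and mir-77 (2833, 5485 and 6294, 2.06-fold). Higher in susi-2, though under 2-fold on this scale, was mir-2214 with 4374, 2138 and 6652 counts (1.92-fold), and mir-228 was 1.2003-fold higher with 176872, 138503 and 87287. The regulators of larval timing were lower in susi-2 by less than 2-fold. The lin-4 microRNA, which acts early, had 3906, 6340 and 2957 counts, 1.73-fold higher in susi-3, and let-7, which acts at the transition to the adult, had 43872, 57826 and 103538, 1.40-fold higher. All 7 tested genes of the let-7 family lay below 0, with a median of −0.49, though with microRNA scaling mir-84 stood at 0.09, mir-793 at 0.07 and lin-58 at 0.01. Of the mir-35 family, known from embryos, 1 of 8 genes was lower (median −0.45).

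**Figure D5:**
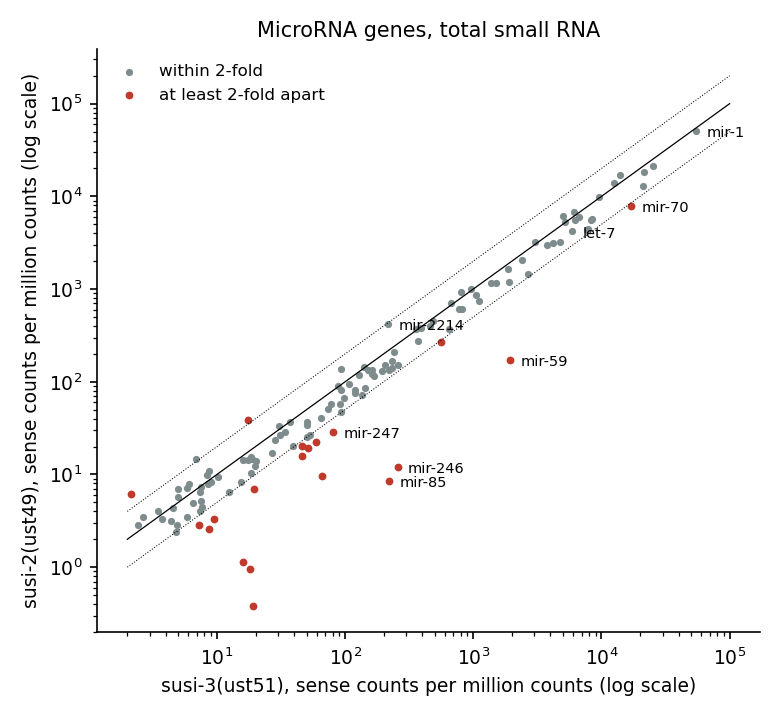
Sense CPM of 133 microRNA genes in susi-2 against susi-3, both on log axes, with the diagonal as a solid line and 2-fold bounds as dotted lines, and genes called at least 2-fold apart in red. Most points lie near the diagonal, while mir-85, mir-246 and mir-59 lie far below it, at 8.50, 12.03 and 172 CPM in susi-2 against 222, 256 and 1928 in susi-3.

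The 21U-RNAs, the piRNAs of the worm germline, summed to 44163 counts in susi-2, 58404 in susi-3 and 135687 in the control, 1.41-fold higher in susi-3. Of 388 tested genes 50 were lower in susi-2 (12.9%) and none higher, with a median of −0.35. Over all genes tested for sense counts 3.82% were lower and 7.62% higher. The number called lower was 25 with microRNA scaling, where 2 were called higher, and 82 with TMM. The lowest with at least 200 counts was 21ur-3320, with 65 counts in susi-2, 251 in susi-3 and 247 in the control, 4.11-fold higher in susi-3 (3.12 to 5.48). The highest was 21ur-776, with 180, 90 and 416.

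The genes called in total RNA were then looked up in the NRDE-3 IPs of the same genotypes. Of the 615 genes with lower antisense counts in susi-2, 256 had enough IP counts, and of these 158 were higher in the IP of susi-2 (61.7%) and 3 lower (1.17%), beside 53.3% and 0.199% of all genes tested in the IP. Of the 187 genes with higher antisense counts, 61 had enough, with 32 higher in the IP (52.5%) and 0 lower. The extremes were mostly poorly covered on the high side, with 2 of the 10 highest named genes reaching 50 IP counts and 7 of the 10 lowest.

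For sense counts the IP order differed between classes. Over all classes, of the 322 genes lower in susi-2 145 had enough IP counts, with 34 lower and 31 higher in the IP. Of the 17 such genes of rRNAs, tRNAs, snRNAs, snoRNAs and spliced leaders, 13 had enough and all 13 were higher in the IP of susi-2. Of the 18 microRNA genes lower in susi-2 10 had enough IP counts and 7 of these were lower there too. Of the 189 protein-coding genes lower in susi-2 101 had enough, with 27 lower and 5 higher in the IP, beside 4.19% and 4.24% of all 7804 genes tested for IP sense counts. Of the 642 genes with higher sense counts 464 had enough, with 46 higher (9.91%) and 15 lower (3.23%). No library came from an IP of untagged worms, so that RNA bound by NRDE-3 and RNA carried over cannot be told apart.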

How the data were processed

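Whole L3 larvae gave total small RNA, and NRDE-3-bound RNA was recovered with anti-FLAG beads. Per the labels' protocols, RNA was treated with phosphatase, then with T4 polynucleotide kinase and 1 mM ATP, which makes siRNAs with a triphosphate end clonable, and RNA of 17 to 30 nt was sequenced. The authors deposited raw counts per feature, sense and antisense apart, per the file headers. Bowtie2 was used, per the submitters' processing notes. The genome build, the annotation, the treatment of reads with several matches and the aligner's version and settings were not given in the sources used here. Near-identical copies may therefore share reads, and read length is not in the tables, so that antisense counts are not called siRNAs.

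The 56377 features were summed to 45510 genes by gene identifier, of which 43622 were found in the name table. This table (assembly WBcel235) gave names and overlaps only. Blank count cells (5) were read as 0, and 3 features without a gene (at most 122 counts per library) were left out. Groups follow the sample titles. CPM used all counts of a library. Shares have exact Clopper-Pearson intervals and ratios of shares the exact conditional interval of both counts, at 95%. Genes with at least 50 counts over both libraries were tested, by the log2 ratio of CPM + 1. A library at 0 was taken at 3 counts to give a finite ratio. No p-value was computed, because each group has 1 library. TMM factors came from edgeR 4.0.16 in R 4.3.3, used for scaling only. Other steps used Python 3.11.15, numpy 2.4.6, pandas 2.3.3, scipy 1.17.1 and matplotlib 3.10.9. The calculations were tested on simulated data.

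Named genes are the 10 highest and 10 lowest antisense and the 6 highest and 6 lowest sense ratios with at least 200 counts outside structural and small RNA classes, the 6 highest and lowest microRNAs with at least 1000 counts, the let-7 family, lin-4, the 4 microRNAs with the most counts, the 3 highest and lowest 21U-RNAs and transposons, up to 4 members of each list (the 2 with the most counts, the highest and the lowest), the nuclear rRNA genes, rrp-8, riok-1, eri-1, nrde-3 and unc-119. The hypodermal genes, T23G5.9, the reversed rRNA features and the ncRNAs over microRNAs were named after their values were seen. The members and the 32 lists were chosen with earlier results of these data known.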

Additional observations from a re-analysis of the deposited data

Results flagged for a closer look

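Some groups of genes stood on opposite sides in total small RNA and in the NRDE-3 IP of the same mutants. Over all genes the antisense median in the IP was 1.06, with 53.3% of genes called higher in susi-2. A ratio above 0 is thus common there. The lists below had medians at least 2-fold from equal in both. Lists with few tested genes, such as tRNAs, were left out. Others crossed by less, such as snoRNAs (−0.76 in total RNA and 2.22 in the IP) and transposons (−0.84 and 0.79). The difference between the kinds of library was not tested, because each group has 1 library. Antisense counts on snRNA genes had a median log2 ratio of susi-2 to susi-3 of −1.40 in total RNA and of 2.39 in the IP. Spliced leader RNAs had −1.42 in total RNA and 1.74 in the IP, and histone genes −1.31 and 1.49. For 18S rRNA the antisense share in susi-2 was 0.539 times that in susi-3 in total RNA and 10.5 times in the IP.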

How the results depend on the processing

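No paired analysis was possible because each genotype has 1 library, and for the same reason no replicate could be left out. Genes called higher by antisense counts in susi-2 (187) were 368 with microRNA scaling, 76 at a minimum of 200 counts, 79 with a pseudocount of 5 CPM and 602 with both strands summed, and those called lower (615) were 285 at 200 counts and 275 with the pseudocount of 5. Sense calls higher in susi-2 (642) were 1150 with microRNA scaling, 356 at 200 counts and 294 with the pseudocount of 5, and sense calls lower (322) were 485 with TMM, 193 with microRNA scaling, 491 with no filter, 133 at 200 counts and 112 with the pseudocount of 5. Fewer genes are tested at the higher minimum. With microRNA scaling the antisense ratios of susi-2 to susi-3 were 3.32 for 26S, 0.649 for 18S and 1.39 for 5S, in the same directions. With 1 copy of 18S the 18S percent was 9.74 in susi-2 and 34.8 in susi-3, and with the reversed features 13.2 and 43.3. The percent of called genes that went the same way in the IP was 73.7 at 200 IP counts and 24.7 relative to the median of all genes for antisense higher, 5.83 relative to the median for antisense lower, 17.9 relative to the median for sense higher and 34.7 at 200 IP counts for sense lower (52.5, 1.17, 9.91 and 23.4 as described). With both strands summed, the antisense medians of snoRNAs turned from −0.76 to 0.94 (66 of 138 genes higher and 3 lower), of heat shock genes from 0.55 to −0.76, of neuronal genes from 0.57 to −0.35 and of tRNAs to 0.0184, and the log2 ratios of rpl-11.2 to 1.13, his-15 to 0.11 and hsp-3 to 0.32. Sense fragments enter that sum, and the list medians are then over more genes. Heat shock genes tested were 16 against 7, neuronal genes 12 against 3, tRNAs 452 against 3 and snoRNAs 138 against 42. The part of each in these changes was not tested. Over the named genes called, 700 of 703 values under an alternative kept their sign. The filters, pseudocounts and scalings used here could not turn the sign of a ratio called at 2-fold, so this count is no check of those calls. The 3 values that turned were those of rpl-11.2, his-15 and hsp-3 with both strands summed. The alternatives that leave out overlapping ncRNA genes and that add the reversed rRNA features were chosen after seeing the data. Depth limits genes under 50 counts, and 1 library per group limits every comparison.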

Other observations

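Genes of RNA decay, whose products trim and degrade faulty RNA, had calls no more frequent than all genes tested. By antisense counts 0 of the 14 tested, from a list of 19, were called, beside 3.92% higher and 12.9% lower of all genes (median log2 difference 0.20, against -0.05 over all genes tested, with a sign that depends on the setting), and by sense counts 1 of 14 was higher in susi-2 and none lower, beside 7.62% and 3.82% (median 0.45, against 0.17 over all genes tested). The gene called was pup-2, a poly(U) polymerase gene, with 102 sense counts in susi-2, 42 in susi-3 and 53 in the control, 2.28-fold higher in susi-2 (1.58 to 3.35), and under TMM scaling or a pseudocount of 5 no gene of the list was called. The exonuclease gene disl-2, whose product degrades uridylated RNA, had 148, 145 and 260 antisense counts. The catalytic exosome gene dis-3 had 65, 30 and 83, a ratio of 2.04 (1.30 to 3.25), and was not called because its log2 difference with the pseudocount was 0.83.

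Single members of large families lay on both sides. Among F-box genes fbxa-171 had 201 antisense counts in susi-2, 30 in susi-3 and 10 in the control, 6.30-fold higher in susi-2 (4.28 to 9.58), while fbxa-118 had 165, 637 and 1422, 4.11-fold higher in susi-3 (3.46 to 4.90). The F-box gene with the most antisense counts in susi-2, fbxb-14, had 2942, 4230 and 5931. The collagen gene col-111 had 82, 482 and 860, 6.25-fold higher in susi-3 (4.94 to 8.003). Of these, fbxa-118, fbxb-14 and col-111 overlap other protein-coding genes (fbxa-194, W08F4.12 and psr-1), so the origin of their counts is uncertain. By sense counts the cytochrome P450 gene cyp-14A5 had 112, 17 and 12, 6.19-fold higher in susi-2, and the tRNA gene C48C5.t3 had 375, 73 and 475, 4.83-fold higher in susi-2 (3.75 to 6.29).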
